A study of Mus musculus with 32 samples.

Results

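The comparison set out here is that of Western diet mice that ate E171 with Western diet mice that did not, in liver. E171 is the food-grade form of titanium dioxide, a white pigment, also written fg-TiO2. The 16 arrays of the 2 groups (8 titled WD_E171 and 8 titled WD_CONT, 1 array per mouse) were taken from 32 arrays in all, and the other 16 hold the same pair of groups on a normal diet. Of 56605 probes that are no controls, 35777 passed the filter, which asks that Feature Extraction called the probe well above background in 6 or more mice of some group of 8, and they stand for 23647 genes, 18004 with a name and 5643 known by their probe only.

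All mice were male F1 animals of the C57BL/6J strain, 21 weeks old at sampling, with no genetic change. Their mothers had eaten control or E171 pellets for 40 days, starting at 8 weeks of age, before males were added, and the pups went on with the treatment of their mother. The pellets were made to reach a daily dose of 10 mg/kg. The Western diet, which the treatment text calls a high fat diet, began at 5 weeks of age and ran for 16 weeks, with E171 (Western diet E171) or without it (Western diet control), so both groups compared carry the diet and differ in E171, the exposure of their mothers included. By the labels, the normal diet groups (control and E171) differ from these in the diet. Litter, cage and time of day of sampling are not given. Each group was treated as 8 separate animals, although some may be littermates. The diet was added to ask whether it worsens what the additive does.

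Liver cells meet swallowed particles and gut products through the portal blood, and the resident macrophages, the Kupffer cells, take up most particles that arrive there. Damaged or unfolded proteins free the transcription factor HSF1, which switches on the genes of heat shock proteins, the chaperones that refold other proteins. Stress of other kinds acts through p53, which halts division by way of Cdkn1a, and through glucocorticoids and the daily clock, which set the rhythm of liver metabolism.

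Levels are given as log2 of the processed signal relative to the 75th percentile of the array (302 to 489 intensity units in the Western diet groups), so a level of 0 is the 75th percentile and a difference of 1 is a 2-fold change. A gene was called where the adjusted p from limma was under 0.05, and differences are E171 minus control with their standard error (SE). Feature Extraction put 32164 to 37261 probes of these arrays well above background, with 0 saturated, and the lowest number belonged to an E171 mouse, replicate 8. Arrays within a group correlated at 0.979 to 0.995, and the 4 slides each held 2 mice of every group. The markers of hepatocytes, such as albumin, were the brightest of the cell type lists, with a mean level of 7.59 to 8.32 in controls and 7.48 to 8.06 in E171 mice.

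A group of 3 control mice (replicates 3, 5 and 7) stood apart. Their signal for Cidea, a lipid droplet protein that the fatty liver makes, lay between 1.75 and 2.25, against 5.47 to 6.58 in the other 5 controls and 5.75 to 6.95 in the 8 E171 mice. Without these 3 controls only 4 genes were called in place of 92: Cd163l1, H3c8, Ptbp2 and the unnamed probe A_52_P372843. All 92 genes kept their direction and an unadjusted p under 0.05 in that fit, which shares the other 13 mice, and 83 of them became smaller, with a median size of 0.51 in place of 0.64. The values without these mice, which were chosen after the data were seen, stand beside the main genes below, and what sets these mice apart was not tested.

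E171 was linked with small changes in few genes. On the Western diet 47 genes rose (0.199% of those tested) and 45 fell (0.19%), 76 of them with a name. Only 6 rose and 16 fell by at least 2-fold, and 40 changed by less than 1.5-fold. At an unadjusted p under 0.05, 1572 genes were higher (6.65%) and 1273 lower (5.38%), a balance that turned in the deposited table (1236 higher and 1645 lower), and the median difference over all genes was 0.009. The 8 controls and the 8 E171 mice did not overlap for 21 of the 92 called genes, against 45 of all genes tested (0.19%). Of the 92, 91 ran the same way on all 4 slides. Slide 3 held control replicate 3, and the only Western diet controls on slide 4 were replicates 5 and 7. On slide 4 the difference therefore rests on controls of low Cidea signal alone. The 92 were chosen for their difference in these same mice, so the counts of 21 and 91 are descriptions only. Among named genes the falls were led by Zbtb16, H2bc23, Hspa1b, Igfbp1 and Hspa1a, and the rises included Gm9881 and Cd163l1. Unnamed probes with large changes were A_30_P01021684 (-1.85, adjusted p = 0.0239) and A_30_P01024527 (2.35, adjusted p = 0.00945), the latter on chromosome 16. A_30_P01021684 was above background in 1 of 8 E171 mice and A_30_P01024527 in 1 of 8 controls, so both sizes are uncertain. The gene with the lowest p has no name: probe A_52_P372843 rose by 0.76 (SE 0.11, adjusted p = 0.00132). The number of calls moved with single mice, from 22 without control replicate 7 and 29 without control replicate 3 to 166 without control replicate 1.

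**Figure D1:**
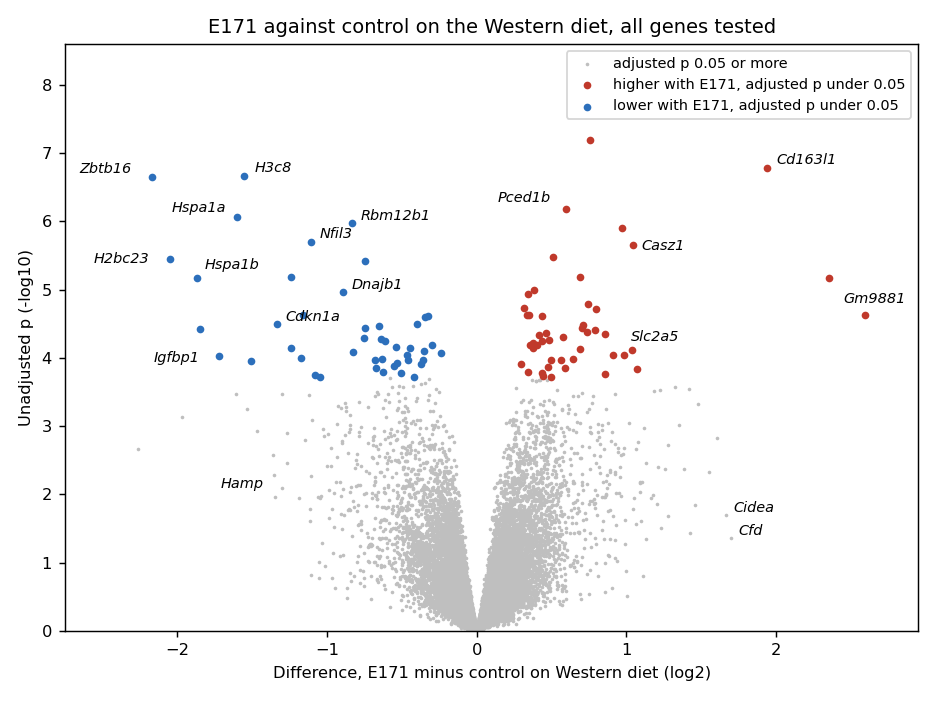
Each point is 1 of the 23647 genes, with the difference of E171 minus control on the Western diet on the x axis (log2) and the unadjusted p on the y axis (-log10). Red points are the 47 genes that rose and blue points the 45 that fell at an adjusted p under 0.05. Cidea, Cfd and Hamp lie far from 0 on the x axis but below the coloured points.

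Hspa1a and Hspa1b, which encode the inducible Hsp70 chaperone, fell, and so did Dnajb1, an Hsp40 co-chaperone that hands Hsp70 its substrates. Hspa1a (probe on chromosome 17, 35106766 to 35106825, mm9) ran from -1.37 through a median of 0.16 to 0.67 in controls and from -2.56 through -1.54 to -0.74 in E171 mice. Control replicate 1, the lowest, lay among the E171 mice, and the other 7 controls lay above all 8 E171 mice. The difference was -1.60 (SE 0.26, adjusted p = 0.00343), a 3.04-fold fall, and -1.24 without the 3 controls (adjusted p = 0.211). Hspa1b (chromosome 17, probe at 35093374 to 35093405) ran from 0.13 through 1.34 to 2.70 in controls and from -1.51 through -0.72 to 0.96 in E171 mice. E171 replicate 6, the highest, lay above 4 of the controls. Hspa1b fell by 1.86 (SE 0.34, adjusted p = 0.00945), and the difference was -1.45 without the 3 controls (adjusted p = 0.34). The 2 genes are near-identical copies, so either probe may bind RNA of both. The probes match each other at 15 of 60 positions, but neither was compared with the RNA of the other gene. Dnajb1 (chromosome 8, 86135660 to 86135719) ran from 2.90 through 3.35 to 4.12 in controls, where replicates 5, 6 and 7 lay above the rest, and from 2.33 through 2.58 to 3.15 in E171 mice. E171 replicate 6 was again the highest and the only 1 inside the range of the controls. It fell by 0.90 (SE 0.17, adjusted p = 0.0137), and the difference was -0.70 without the 3 controls (adjusted p = 0.336).

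The upstream sequence of these genes is shown because they moved together. HSF1 binds heat shock elements, which are inverted repeats of a short unit, and the search was for the letters GAANNTTC and their other arrangement, TTCNNGAA, each of which reads the same on both strands. Bases 250 to 1 before the start of each gene are given 5′ to 3′ on the strand of the gene, from RefSeq, build GRCm38.p6, with matches in capitals. Hspa1a lies at chr17:34972157-34972406 and Hspa1b at chr17:34959239-34959488, both on the minus strand.
Hspa1a: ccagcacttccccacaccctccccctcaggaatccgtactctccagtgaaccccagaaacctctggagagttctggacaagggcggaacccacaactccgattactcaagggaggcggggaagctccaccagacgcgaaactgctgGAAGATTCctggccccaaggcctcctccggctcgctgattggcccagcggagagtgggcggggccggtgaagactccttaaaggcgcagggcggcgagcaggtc
Hspa1b: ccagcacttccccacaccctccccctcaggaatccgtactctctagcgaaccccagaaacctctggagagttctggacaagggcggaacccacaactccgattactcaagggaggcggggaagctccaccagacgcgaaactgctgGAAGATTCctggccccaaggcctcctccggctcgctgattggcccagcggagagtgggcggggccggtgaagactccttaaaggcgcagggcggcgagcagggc
Hspa1a and Hspa1b are alike at 247 of the 250 bases, and each holds 1 match at the same place. The windows of Dnajb1 hold none, which says only that these letters are not in them. Of 32851 such windows in the table, 4218 (12.8%) hold a match, and of the 29 windows of listed heat shock genes 12 (41.4%), those of 10 genes out of the 22 with a window. These 10 include Hspa1a, Hspa1b and Hsph1. A match is a description of the letters and not a site.

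Of 27 heat shock proteins and co-chaperones on the list, 26 were tested. The list was drawn up after the values of its members were seen, so its counts and median are descriptions only. The 3 above fell and 0 rose, and at an unadjusted p under 0.05 the count was 15 lower and 0 higher. The median difference was -0.33, against 0.009 for all genes, and -0.25 without the 3 controls. Members that did not pass were Hsph1, a chaperone that resets Hsp70 (-0.85, adjusted p = 0.0976), Bag3, which links Hsp70 to autophagy (-0.58, adjusted p = 0.111), and Hspa8, the constitutive Hsp70 (-0.46, adjusted p = 0.138). Hsp90ab1, the constitutive cytosolic Hsp90, stood at -0.22 (adjusted p = 0.322). The mean level of the list ran from 3.14 to 3.74 in controls and from 2.85 to 3.40 in E171 mice, so the groups overlapped. Hsf1 itself differed by -0.08 (adjusted p = 0.723).

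**Figure D2:**
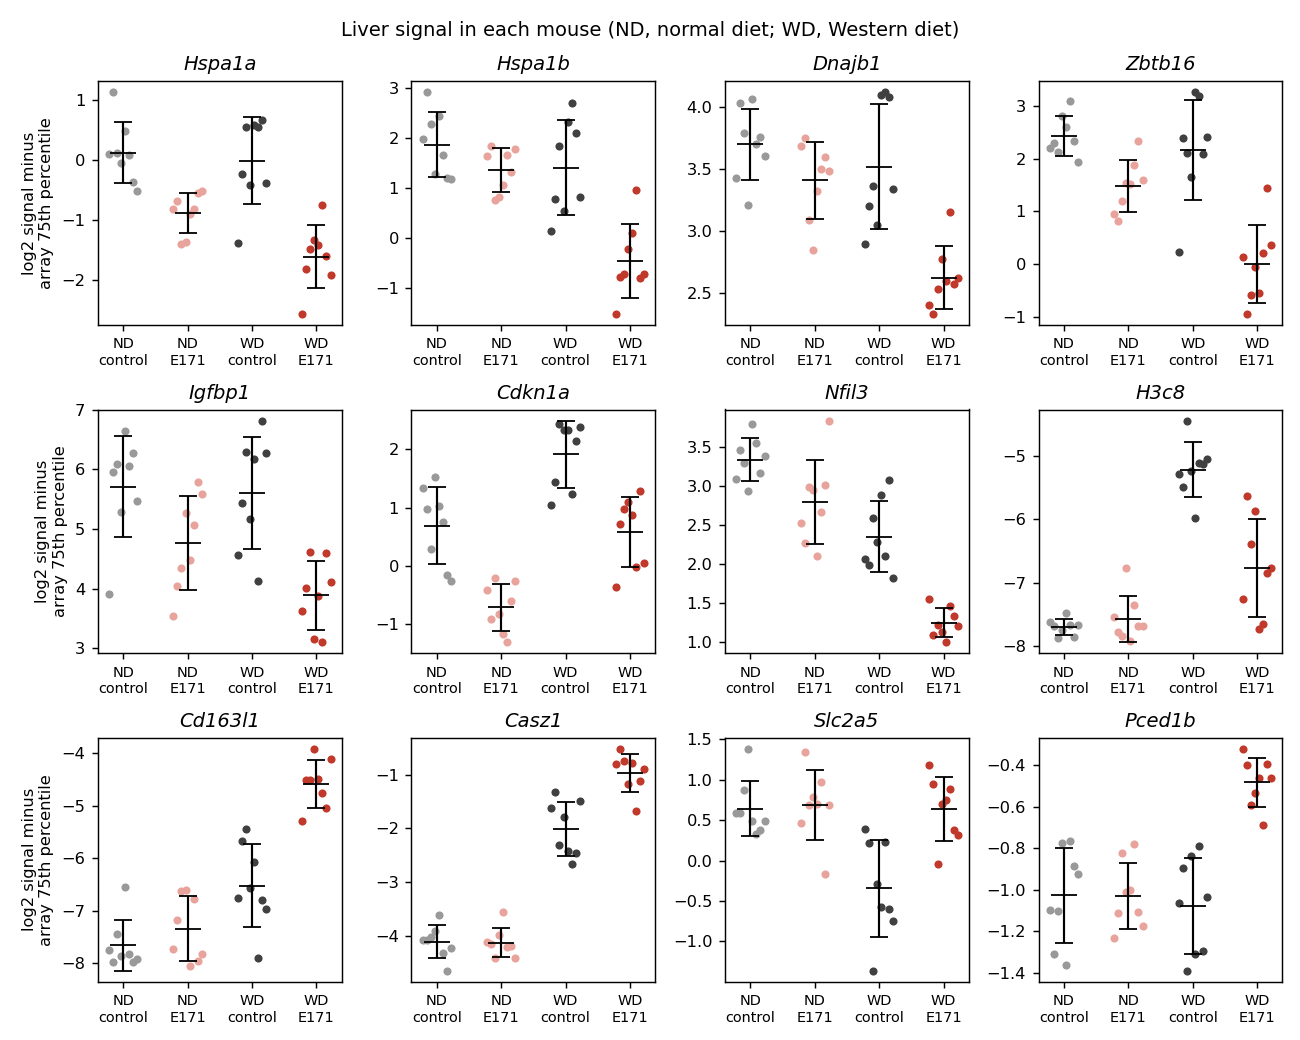
Each panel is 1 gene, each point 1 mouse, with the level (log2 signal minus the 75th percentile of its array) on the y axis and the 4 groups on the x axis. Long bars are group means and whiskers 1 SD, n = 8 mice per group. Hspa1a, Hspa1b, Dnajb1, Zbtb16, Igfbp1, Cdkn1a, Nfil3 and H3c8 are lower, and Cd163l1, Casz1, Slc2a5 and Pced1b higher, in Western diet E171 mice than in Western diet controls.

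Genes that answer to unfolded proteins in the endoplasmic reticulum lay below 0 in 19 of 20 cases, but none passed. At an unadjusted p under 0.05, 7 were lower and 0 higher, with a median of -0.36 that became -0.20 without the 3 controls. The lowest p belonged to Ddit3, the stress factor CHOP (-0.84, SE 0.23, adjusted p = 0.0956), which stood at -0.42 without the 3 controls (adjusted p = 0.873). The 2 kept probes of Ddit3 stood at -0.84 and -0.23. Chac1, which degrades glutathione, was at -0.99 (adjusted p = 0.214), and Dnajb9, a chaperone of the reticulum, at -0.64 (adjusted p = 0.113).

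Of the genes of DNA packaging and cell division, 2 histone genes fell, and the cyclins and mitotic kinases lay low without a call. H3c8, a gene for histone H3 (chromosome 13, 23627719 to 23627778, mm9), ran from -5.98 through -5.18 to -4.43 in controls and from -7.74 through -6.81 to -5.63 in E171 mice. Its probe was well above background in 7 of 8 controls and 1 of 8 E171 mice, so the level with E171 is close to the limit of the array. E171 replicates 2 and 4 lay above the lowest control. H3c8 fell by 1.56 on the scale of the processed signal (SE 0.23, adjusted p = 0.00132) and by 1.54 without the 3 controls (adjusted p = 0.0149). With the normexp background correction H3c8 stood at -0.09 (adjusted p = 0.638), which ended its call. H2bc23, a gene for histone H2B whose probe matches the accessions of 2 genes (chromosome 13, 21929140 to 21929199), was above background in 8 of 8 controls and 2 of 8 E171 mice. It ran from -5.16 through -4.02 to -3.40 in controls and from -7.87 through -6.09 to -4.53 in E171 mice, and fell by 2.05 (SE 0.36, adjusted p = 0.00691). E171 replicates 3 and 7 lay above the lowest control. H2bc23 stood at -1.82 without the 3 controls (adjusted p = 0.22) and at -0.33 with normexp (adjusted p = 0.088).

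Of 51 replication-dependent histone genes in the clusters, 47 were tested. This list too was drawn up after its values were seen, so its counts are descriptions only. The 2 named fell and 0 rose, and 14 were lower and 1 higher at an unadjusted p under 0.05, with a median of -0.07. Histone genes are near copies of one another and a probe can bind more than its own. The exception was H1f4, a linker histone, at 0.44 (SE 0.13, adjusted p = 0.126).

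Of the 21 cell cycle genes tested, 0 passed and 19 lay below 0. At an unadjusted p under 0.05, 10 were lower and 0 higher. The median of the cell cycle list was -0.54, and -0.58 without the 3 controls. The lowest p was that of Ccnb2, cyclin B2, which ran from -1.24 through 0.19 to 0.94 in controls and from -1.62 through -0.89 to -0.16 in E171 mice (-0.91, SE 0.23, adjusted p = 0.0809). Cdk1, the kinase that drives mitosis, stood at -0.94 (adjusted p = 0.194) and Mki67, a marker of dividing cells, at -0.66 (adjusted p = 0.24). Outside this list, a pair of genes linked to dividing cells fell: Stmn1, the microtubule regulator stathmin (-0.63, SE 0.15, adjusted p = 0.0459), and Lockd, a noncoding RNA made next to the cell cycle inhibitor Cdkn1b (-1.24, SE 0.27, adjusted p = 0.0303). In a whole liver, fewer cells of a type and less RNA in each of them cannot be told apart.

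Among the targets of p53, Cdkn1a, the cell cycle inhibitor p21, fell on the Western diet. Its level (chromosome 17, 29237377 to 29237436, mm9) ran from 1.04 through 2.23 to 2.43 in controls and from -0.35 through 0.80 to 1.28 in E171 mice, with controls 1 and 6 inside the range of the E171 mice. The difference was -1.33 (SE 0.27, adjusted p = 0.0237), with -1.43 to -0.85 over its 3 probes, and -1.10 without the 3 controls (adjusted p = 0.464). Trp53inp1, which promotes p53-driven cell death and autophagy, ran from 2.16 through 2.34 to 3.09 in controls and from 1.52 through 1.70 to 1.85 in E171 mice, with no overlap. Trp53inp1 fell by 0.83 (SE 0.18, adjusted p = 0.0328), with -0.83 and -0.51 for its 2 probes, and stood at -0.57 without the 3 controls (adjusted p = 0.647). Of 19 targets tested, these 2 fell and 0 rose, 8 were lower and 0 higher at an unadjusted p under 0.05, and the median was -0.24. Eda2r, a death receptor, was at -1.02 (adjusted p = 0.102) and Btg2, an antiproliferative factor, at -0.70 (adjusted p = 0.133, and -0.44 without the 3 controls). Mdm2, the ligase that degrades p53, was at -0.15 (adjusted p = 0.297) and Trp53 itself at 0.03.

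Zbtb16, a zinc finger repressor also known as PLZF that glucocorticoids induce, showed the largest fall among named genes. Its level (chromosome 9, 48462419 to 48462478, mm9) ran from 0.23 through 2.24 to 3.27 in controls and from -0.94 through 0.04 to 1.44 in E171 mice. Control replicate 1, at 0.23, lay among the E171 mice, and the other 7 controls lay above all 8 of them. Zbtb16 fell by 2.17 (SE 0.33, adjusted p = 0.00132), a 4.49-fold fall, with -2.17 and -2.02 for its 2 probes, and stood at -1.98 without the 3 controls (adjusted p = 0.0554). Cebpd, a transcription factor of the acute stress response, fell by 0.68 (SE 0.15, adjusted p = 0.0351), from a median of 2.39 to 1.71. Of 15 glucocorticoid and fasting targets these 2 fell and 0 rose, 5 were lower and 0 higher at an unadjusted p under 0.05, and the median was -0.24. Tsc22d3, the anti-inflammatory protein GILZ, stood at -0.87 (adjusted p = 0.0826), Lpin1, a phosphatidate phosphatase, at -1.10 (adjusted p = 0.0946) and Tat, tyrosine aminotransferase, at -0.72 (adjusted p = 0.168, and -0.27 without the 3 controls). Fkbp5 (-0.14) and Dusp1 (0.04), which glucocorticoids also induce, were closer to 0.

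Igfbp1, the secreted IGF-binding protein that insulin keeps low, fell from a bright level. It ran from 4.13 through 5.81 to 6.82 in controls and from 3.10 through 3.94 to 4.62 in E171 mice, and control replicates 1 and 6 lay inside the range of the E171 mice. Igfbp1 (chromosome 11, 7102442 to 7102501) fell by 1.72 (SE 0.38, adjusted p = 0.0347), a 3.3-fold fall, and stood at -1.23 without the 3 controls (adjusted p = 0.647). It was the only member called among 19 genes of glucose metabolism and insulin signalling, where 2 were higher and 1 lower at an unadjusted p under 0.05 and the median was -0.03. The gluconeogenic gene Pck1 stood at -0.62 and G6pc at 0.02, neither of them called.

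The clock repressor Nfil3, which turns off the targets of DBP, fell in every E171 mouse relative to every control. Controls ran from 1.82 through 2.20 to 3.08 and E171 mice from 0.99 through 1.21 to 1.55. Nfil3 fell by 1.11 (SE 0.19, adjusted p = 0.00522), with -1.13 and -1.11 for its 2 probes, and stood at -0.81 without the 3 controls (adjusted p = 0.22). Of 18 clock genes it was the only one called, and 5 were higher and 3 lower at an unadjusted p under 0.05, with a median of 0.20. Those higher were Dbp (1.18, adjusted p = 0.227, and 0.73 without the 3 controls), Tef (0.56), Hlf (0.53), Per3 (0.86) and Cry2 (0.38), and those lower besides Nfil3 were Arntl, the core activator BMAL1 (-1.12, adjusted p = 0.067), and its partner Clock (-0.20). Nr1d1, the repressor of Arntl, stood at 0.02. These genes change over the day, and the hour at which each mouse was sampled is not given, so E171 and the time of sampling cannot be told apart here.

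Several of these calls hung on single mice. Cdkn1a lost its call without control replicate 3 or 7 or E171 replicate 1 or 8 (adjusted p = 0.0515 to 0.0644, with differences of -1.30 to -1.20). Igfbp1 lost it without control replicate 3, 5 or 7 or E171 replicate 1, 2, 4, 5, 6 or 8 (adjusted p = 0.0525 to 0.105). Trp53inp1 lost it without control replicate 3, 5 or 7 or E171 replicate 1, 2, 4, 5 or 8 (adjusted p = 0.0506 to 0.0984). Lockd lost it without control replicate 3, 4 or 7 or E171 replicate 1, 2, 4, 5 or 8 (adjusted p = 0.0543 to 0.0961). Cebpd lost it without any mouse but control replicates 1, 2, 4 and 8 and E171 replicates 3 and 6 (adjusted p = 0.0507 to 0.105). Hspa1a, Hspa1b, Dnajb1, Zbtb16, Nfil3, H3c8 and H2bc23 kept theirs whichever 1 mouse of these groups was left out. With the 16 Western diet arrays fitted alone, calls fell to 40. The differences are those of the same group means and cannot move in that fit, where only the estimate of the spread changes. Hspa1b (adjusted p = 0.0652), Dnajb1 (0.0629), H2bc23 (0.0543), Cdkn1a (0.058), Igfbp1 (0.0632), Lockd (0.115) and Cebpd (0.114) then missed the threshold.

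**Figure D3:**
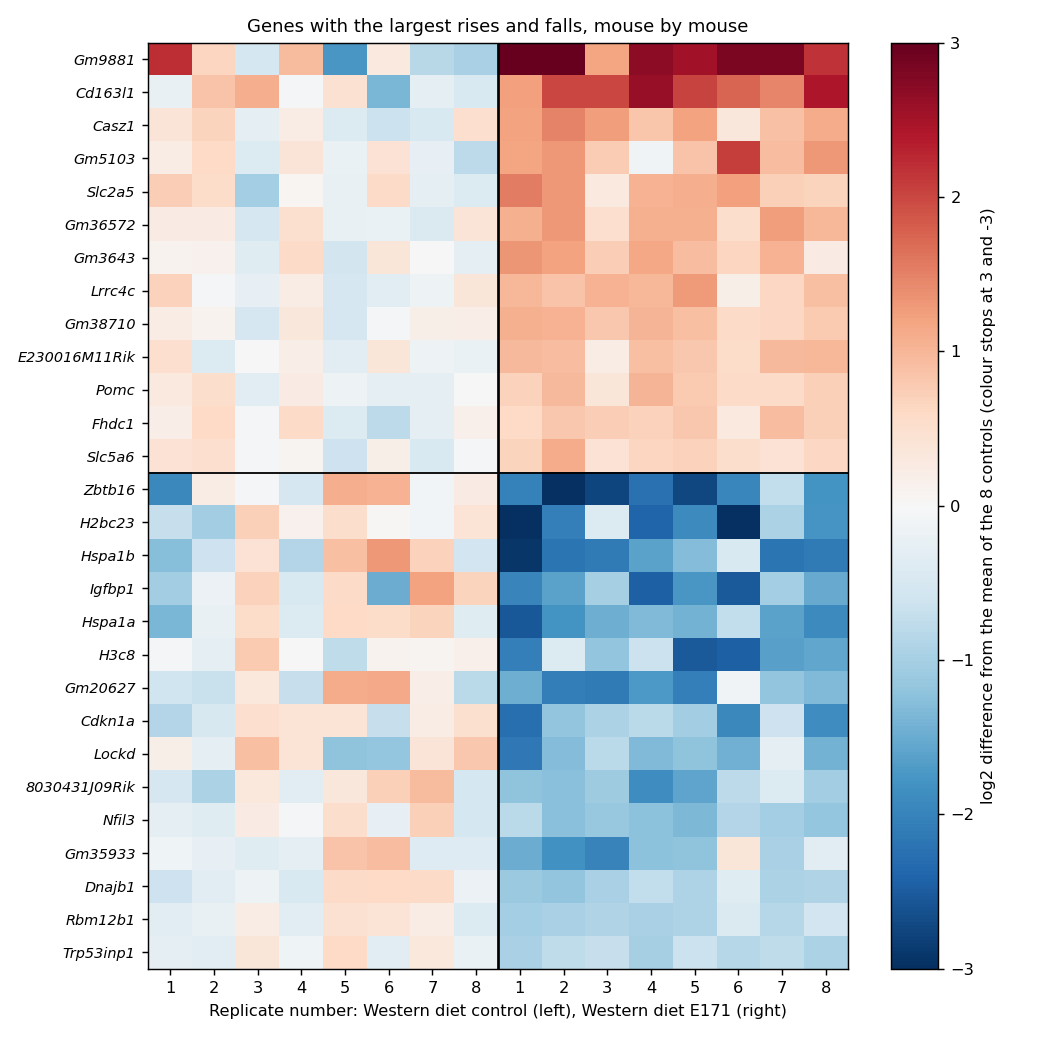
Rows are the named genes with the largest rises (above the line) and falls (below it), without the few that are not reported here, and columns the 8 controls and 8 E171 mice of the Western diet. Colour is the log2 difference of a mouse from the mean of the 8 controls, red higher and blue lower, with the scale stopped at 3 and -3. Control replicate 1 is blue for Zbtb16, Hspa1b and Hspa1a.

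The rise with the lowest p among named genes was that of Cd163l1. Cd163l1, a scavenger receptor related to CD163 that gamma delta T cells carry (chromosome 7, 147416949 to 147417008, mm9), was well above background in 2 of 8 controls and 8 of 8 E171 mice. It ran from -7.89 through -6.66 to -5.44 in controls and from -5.29 through -4.51 to -3.92 in E171 mice, with no overlap. Cd163l1 rose by 1.94 (SE 0.29, adjusted p = 0.00132), and by 2.19 without the 3 controls (adjusted p = 0.00354), the lowest adjusted p there. Since most controls were not above background, the size depends on how background is removed: Cd163l1 stood at 0.34 with normexp (adjusted p = 0.0216) and at 0.68 in the deposited table. Cd163l1 kept its call in each of the 30 alternative analyses, alone among the 32 called genes followed through them. The other called genes were not followed. Cd163l1 passed the filter through the Western diet E171 group alone, and the alternatives use these same mice. Its kept call and its lack of overlap compare signal with a level near the background, and are no separate support. Of the 13 genes on a list for gamma delta T cells, drawn up after its values were seen, only 5 could be tested. Cd163l1 was the only member called: Cd3e, a chain of the T cell receptor complex, stood at 0.00, Sox13 at 0.06 and Maf at 0.09.

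Gm9881, a predicted gene of unknown role (chromosome 16, 91168472 to 91168531), rose by 2.59 (SE 0.52, adjusted p = 0.0199). Its probe was above background in 3 of 8 controls and 8 of 8 E171 mice, and it ran from -7.76 through -6.12 to -3.79 in controls and from -4.81 through -3.25 to -2.60 in E171 mice. Control replicate 1 lay inside the range of the E171 mice. With most controls not above background the size is uncertain: it was 0.59 with normexp (adjusted p = 0.00106) and 1.11 in the deposited table. The difference of Gm9881 was 1.97 without the 3 controls (adjusted p = 0.466), and its adjusted p was 0.0505 to 0.0597 without control replicate 3 or 7 or E171 replicate 2. Other rises were in Gm5103 (1.04, with 1 of 8 and 6 of 8 arrays above background), Gm36572 (0.97), Gm3643 (0.91), Gm38710 (0.86) and E230016M11Rik (0.80), genes or transcripts of unknown role. Each of these, Gm36572 apart, lost its call without some single mouse or with normexp.

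Casz1, a zinc finger transcription factor (chromosome 4, 148319121 to 148319180), was measured in every mouse. It ran from -2.65 through -2.05 to -1.33 in controls and from -1.68 through -0.85 to -0.53 in E171 mice, where replicate 6 alone lay inside the range of the controls. Casz1 rose by 1.04 (SE 0.18, adjusted p = 0.00522), with 0.30 to 1.04 over its 4 probes, and stood at 0.81 without the 3 controls (adjusted p = 0.22). Slc2a5, the fructose transporter GLUT5, ran from -1.36 through -0.43 to 0.39 in controls and from -0.04 through 0.72 to 1.19 in E171 mice. The groups overlapped in a few mice. It rose by 0.98 (SE 0.22, adjusted p = 0.034), and stood at 0.68 without the 3 controls (adjusted p = 0.612). Slc5a6, the transporter of biotin and pantothenate, rose by 0.64 (SE 0.14, adjusted p = 0.0351). Slc5a6 stood at 0.42 without the 3 controls (adjusted p = 0.647) and lost its call without control replicate 3, 5 or 7 or E171 replicate 1, 2, 4, 5 or 8 (adjusted p = 0.0529 to 0.105). Casz1 kept its call whichever 1 mouse was left out, and missed it with the Western diet arrays fitted alone (adjusted p = 0.0535). Slc2a5 lost its call without control replicate 3, 5 or 7 or E171 replicate 1, 2, 4 or 5 (adjusted p = 0.0623 to 0.0984), and with those arrays alone (adjusted p = 0.0974).

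Pced1b, an esterase-like protein, rose by a small amount with little spread. Its 8 controls ran from -1.39 through -1.05 to -0.79 and its 8 E171 mice from -0.69 through -0.46 to -0.32, with no overlap. The difference was 0.59 (SE 0.10, adjusted p = 0.00317), and 0.44 without the 3 controls (adjusted p = 0.198). Rises also reached the actin-linked protein Fhdc1 (0.70, adjusted p = 0.0239), the neuronal adhesion protein Lrrc4c (0.86, adjusted p = 0.0468) and Pomc, the precursor of melanocortins and ACTH (0.71, adjusted p = 0.0237). These calls were not stable: Lrrc4c lost its call without any 1 of 13 mice, all but control replicates 1 and 8 and E171 replicate 6 (adjusted p = 0.0522 to 0.107). Fhdc1 lost it without control replicate 3, 5 or 7 or E171 replicate 2 (adjusted p = 0.054 to 0.072), and Pomc without control replicate 3 or 7 or E171 replicate 2 or 4 (adjusted p = 0.0525 to 0.0688).

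Smaller rises were those of Hnrnpd, an RNA-binding protein that controls mRNA decay (0.33, no overlap), Ptbp2, a splicing factor (0.39, no overlap), Pou2f1 (0.30), Meis2 (0.36), and Nr1h5, a nuclear receptor of the FXR family (0.50). Their kept probes ran from 0.25 to 0.33 for Hnrnpd, 0.065 to 0.54 for Ptbp2, 0.17 to 0.30 for Pou2f1, 0.13 to 0.50 for Meis2 and 0.32 to 0.50 for Nr1h5. Foxf1, a transcription factor of mesenchymal cells such as the stellate cell, rose by 0.42 (SE 0.09, adjusted p = 0.0261). Fendrr, the noncoding RNA transcribed next to Foxf1, rose with it by 0.35 (SE 0.07, adjusted p = 0.0199). Foxf1 lies at 123611944 to 123612003 and Fendrr at 123582712 to 123582771 of chromosome 8 by their probes. The 11 stellate cell markers had 0 calls and a median of 0.10.

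Among the other falls, a pair of neighbouring genes for RNA-binding proteins moved together. Rbm12b1 (chromosome 4, 12073578 to 12073637) ran from -1.71 through -1.31 to -0.85 in controls and from -2.32 through -2.23 to -1.73 in E171 mice, with no overlap. It fell by 0.83 (SE 0.14, adjusted p = 0.00356), and its copy Rbm12b2 (12023264 to 12023323 of the same chromosome) by 0.50 (SE 0.12, adjusted p = 0.046). The 2 genes are close relatives. Their probes share 20 of 60 bases at the same position, which does not show whether either binds RNA of the other gene. P4ha1, a subunit of the enzyme that hydroxylates collagen prolines, fell by 0.74 (SE 0.13, adjusted p = 0.00691), with -0.74 and -0.48 for its 2 probes. Thbd, the endothelial anticoagulant thrombomodulin (-0.65), Jdp2, a repressor of AP-1 (-0.61), Ccl9, a chemokine of macrophages (-0.55), and Nedd4l, a ubiquitin ligase (-0.42), also fell. Falls in Gm20627 (-1.51, adjusted p = 0.0359), 8030431J09Rik (-1.16, adjusted p = 0.0199) and Gm35933 (-1.08, adjusted p = 0.0475) concern transcripts of unknown role. Gm20627 lost its call without any 1 of 11 mice, all but control replicates 1, 2, 4 and 8 and E171 replicate 6 (adjusted p = 0.0502 to 0.0984). Gm35933 lost it without any 1 of 11, all but control replicates 1, 2 and 8 and E171 replicates 6 and 8 (adjusted p = 0.0543 to 0.115), and 8030431J09Rik without control replicate 3 or 7.

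Genes of fat and drug metabolism had 0 calls in lists of 20 each. Lipogenesis genes were higher in 5 and lower in 3 cases at an unadjusted p under 0.05, with a median of 0.20 that became 0.03 without the 3 controls. Thrsp, which marks active fat synthesis, stood at 0.77 (adjusted p = 0.248), and at 0.39 without them. Srebf1, the master regulator, stood at 0.55 (adjusted p = 0.302). The lowest p on this list was that of Lpin1, which was lower (-1.10, adjusted p = 0.0946, and -1.175 without the 3 controls). Lipid droplet and lipid uptake genes had a median of 0.09, and -0.03 without the 3 controls. At an unadjusted p under 0.05, 2 of them were higher and 2 lower. Cidea stood at 1.67 (SE 0.68, adjusted p = 0.303), and at 0.13 without the 3 controls. The lowest p was that of Plin5, at -0.27 (adjusted p = 0.216), and at -0.28 without the 3 controls. Xenobiotic cytochromes P450 had 5 members higher and 1 lower at an unadjusted p under 0.05, with a median of 0.27 that became -0.03. The top member was Cyp2c54, at 0.93 (adjusted p = 0.221), and 0.38 without them. Among other metabolic lists, medians were 0.04 for fatty acid oxidation, -0.01 for cholesterol synthesis, 0.03 for bile acids, 0.00 for sphingolipid enzymes, 0.23 for adipocyte genes, -0.18 for amino acid and urea metabolism and 0.03 for oxidative phosphorylation, each with 0 calls. Without the 3 controls the median was 0.12 for adipocyte genes and 0.01 for amino acid and urea metabolism. Members of these lists with the lowest p included Acot3, a peroxisomal thioesterase (1.09, adjusted p = 0.198, and 0.62 without the 3 controls), and Fgfr4, the receptor of the gut hormone FGF15 (-0.29, adjusted p = 0.0826, and -0.16 without them). The adipocyte protease Cfd stood at 1.70 (SE 0.81, adjusted p = 0.399).

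The lists of oxidant defence and inflammation held 0 called genes, although Ccl9, which is on none of them, fell. Of 18 NRF2 targets, 4 were lower and 0 higher at an unadjusted p under 0.05, led by Gsta2, a glutathione transferase (-0.66, adjusted p = 0.242, and -0.41 without the 3 controls). The 15 antioxidant enzymes had a median of 0.00, and their largest difference by p was that of Gsr, glutathione reductase (-0.10, adjusted p = 0.399). Inflammatory cytokines and chemokines had 3 of 25 lower and 0 higher at an unadjusted p under 0.05, with Ccl7 at -0.99 (adjusted p = 0.0982, and -0.66 without them). Interferon-stimulated genes had 9 of 26 lower and 0 higher, with a median of -0.17, led by Bst2, which tethers viruses to the cell (-0.33, adjusted p = 0.0967, and -0.19 without the 3 controls). Acute phase proteins (median -0.05), fibrosis genes (-0.01), lysosome genes (-0.04), immediate early genes (-0.28) and genes of iron and metal handling (-0.07) had 0 calls each. Ccn2, a growth factor of scarring, stood at -0.68 (adjusted p = 0.194), and at -0.40 without the 3 controls. Hamp, the iron hormone hepcidin, stood at -1.30 (SE 0.46, adjusted p = 0.212), and at -0.60 without the 3 controls. Male-biased (0.02) and female-biased (0.25) liver genes and the growth hormone axis (-0.03) had 0 calls, and without the 3 controls the first 2 medians were 0.11 and -0.06.

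Cell type markers showed few shifts. Of 8 B cell markers, 5 were higher and 0 lower at an unadjusted p under 0.05, with a median of 0.34 (2 higher and a median of 0.16 in the deposited table, 3 higher with quantile normalization, and a median of 0.17 with normexp), and the mean level of the list ran from -3.01 to -2.45 in controls and from -2.54 to -1.96 in E171 mice. Of 14 markers of T and NK cells 13 lay above 0, with a median of 0.24 and 0 at an unadjusted p under 0.05, and a mean level of -2.19 to -0.71 in controls and -2.15 to -0.70 in E171 mice. Kupffer cell and macrophage markers had a median of -0.03, and -0.26 without the 3 controls, with Marco, a receptor for particles, at -0.97 (SE 0.68, adjusted p = 0.615) and then -0.51. Medians of the others were -0.02 for hepatocyte, -0.07 for lipid-associated macrophage, 0.17 for neutrophil, -0.03 for endothelial cell, 0.22 for cholangiocyte, 0.35 for erythroid, 0.15 for adipocyte and -0.08 for exocrine pancreas markers, all with 0 calls. Without the 3 controls the B cell median was 0.40, that of T and NK cells 0.10 and that of erythroid markers 0.07. The part of these shifts in the calls above was not tested.

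**Figure D4:**
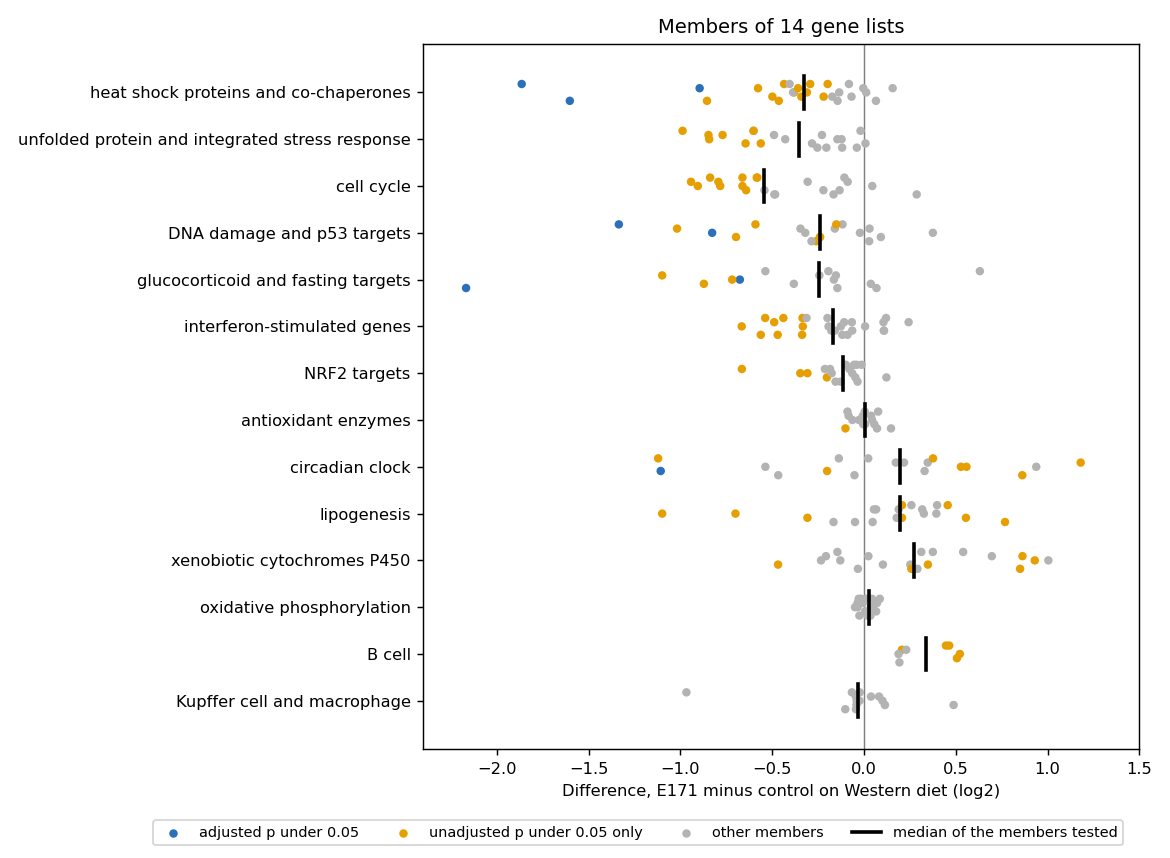
Each point is 1 tested member of a gene list, placed by its difference of E171 minus control on the Western diet (log2, x axis), and the black bar is the median of the list. Blue marks an adjusted p under 0.05 and orange an unadjusted p under 0.05 only. The heat shock list was drawn up after the values of its members were seen. The bars of the cell cycle (-0.54), unfolded protein (-0.36) and heat shock (-0.33) lists lie left of 0, and that of the oxidative phosphorylation list (0.03) close to it.

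The normal diet groups, which share no array with these, gave 0 calls for E171 against control in limma (0%), with a lowest adjusted p of 0.4 and 977 genes at an unadjusted p under 0.05 (4.13%). The difference of E171 effects between diets was called for 0 genes as well (0%), with 1241 genes at an unadjusted p under 0.05. So no gene was shown to respond differently on the 2 diets. The lowest adjusted p for that difference was 0.417, in H3c8, whose probe was above background on none of the normal diet arrays. A Western diet change is there set against the background, so the difference between diets cannot be read for H3c8. After H3c8 the lowest p values for that difference belonged to AI197445 (-0.57 on the Western and 0.50 on the normal diet), Cacng7, a calcium channel subunit (0.42 and -0.24), Pced1b and Clstn3, a calsyntenin (0.53 and -0.73). Of the 92 genes called on the Western diet, 79 had the same sign on the normal diet (85.9%, against 56.9% of all genes tested), and 91 were smaller there, with a median size of 0.14 against 0.64. Since the 92 were chosen for their size on the Western diet, the smaller size on the normal diet is a description only. The counts include genes such as H3c8, H2bc23, Cd163l1, Gm5103 and Gm9881. Their probes were above background on few or none of the normal diet arrays, so their sign and size there cannot be read.

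At an unadjusted p under 0.05, 19 of the 92 moved the same way on the normal diet and 0 the opposite way. Cdkn1a was as low there, at -1.40 on the normal diet against -1.33 on the Western diet. Hspa1a (-1.01), Zbtb16 (-0.94), Igfbp1 (-0.95), Nfil3 (-0.54), Cebpd (-0.54) and Trp53inp1 (-0.41) were among the 19 too, while Hspa1b (-0.51) and Dnajb1 (-0.29) were not. Genes near 0 on the normal diet included Casz1 (-0.01), Pced1b (0.00) and Slc2a5 (0.04). The probes of H3c8, H2bc23 and Cd163l1 were above background on 0 of the 16 normal diet arrays, and that of Gm9881 on 1 of 8 in each group, so whether E171 moved them on that diet cannot be read from these arrays. The heat shock list had a median of -0.02 and the cell cycle list of -0.11 on the normal diet, against -0.26 for glucocorticoid targets.

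**Figure D5:**
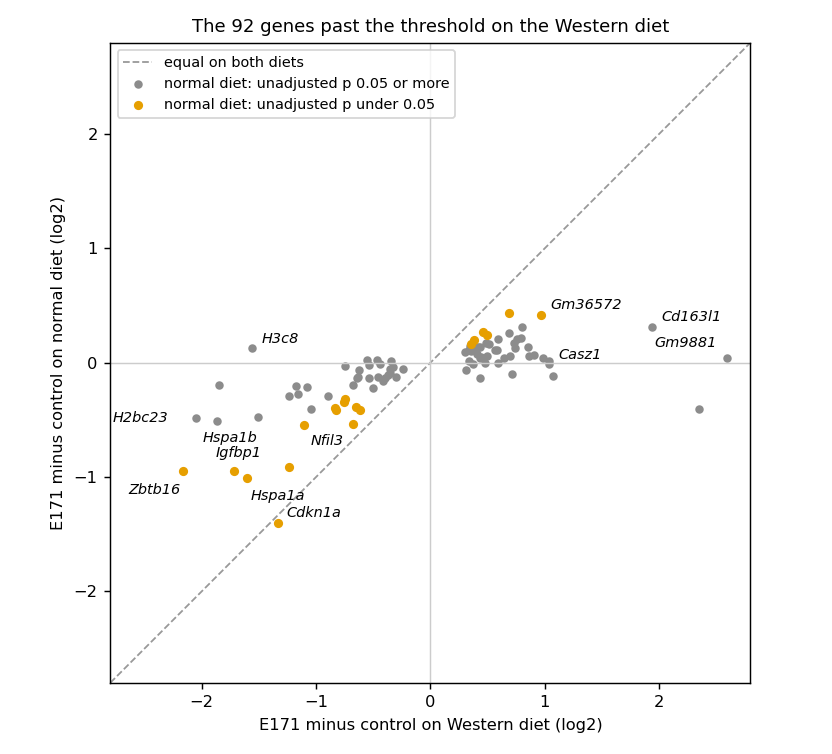
Each point is 1 of the 92 genes called on the Western diet, with its difference of E171 minus control on that diet on the x axis and on the normal diet on the y axis (log2). Orange points have an unadjusted p under 0.05 on the normal diet, and the dashed line marks equal differences. Cdkn1a lies on the line, and 91 of the 92 genes have a smaller difference on the normal diet. The points include genes not above background on the normal diet, such as H3c8 and Cd163l1.

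The diet comparison in mice without E171 shares the 8 Western diet controls with the comparison above, so a chance error in those controls moves the 2 differences in opposite directions, and their signs are not read against each other. The values stand side by side for genes measured in all groups. Lockd differed by 3.45 with the diet (Western minus normal, controls) and by -1.24 with E171 (Western diet), Slc2a5 by -0.98 and 0.98, Casz1 by 2.10 and 1.04, Slc5a6 by 1.25 and 0.64, and Nfil3 by -0.99 and -1.11. Zbtb16, Hspa1a, Igfbp1 and Pced1b differed by -0.26, -0.13, -0.10 and -0.05 with the diet. H3c8 and H2bc23 were above background in none of the normal diet controls, so no diet difference is given for them.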

How the data were processed

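Liver RNA of 32 mice was read on Agilent one-colour (Cy3) arrays. Per the file headers, the processed signal deposited for each spot is an intensity, linear and with background already removed. Per the submitters' processing notes, Agilent Feature Extraction 10.10.1.1 and limma were used. The table of values that the authors deposited is on a log2 scale and covers 36695 probes, with column medians of 7.12 to 7.18 and the same mean in every column of a group but not between groups. It served as an alternative, and how it was scaled is not stated in the labels.

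Replicate spots of 300 probes were averaged after outlier spots were left out, log2 was taken and the 75th percentile of each array subtracted. Gene names came from RefSeq by accession (33903 probes), symbol (9458) or synonym (488), or from the files (1948), and 10808 probes have none. The brightest kept probe stands for a gene. Probe positions are those of the files, in mm9, and their place within transcripts was not analysed here.

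The model (limma 3.58.1, R 4.3.3) had a mean for each of the 4 groups and no block, over 32 arrays, and two-sided p values were adjusted by Benjamini and Hochberg over 23647 genes with a threshold of 0.05. On simulated data of this design the fit called 92 of 100 genes changed by 1 on the log2 scale. The fit called 65 of 100 changed by 0.5, with 9 false calls. Whether these counts hold for the real arrays, where the number of calls moved with single mice, was not tested. Precision is limited by 8 mice a group. The p values and SEs use a spread per gene estimated over all 32 arrays, so the normal diet mice count in it too. With the Western diet arrays fitted alone, 40 genes were called. The labels do not say whether replicate numbers pair the mice, and the model did not pair them. With group means removed, same-numbered control and E171 mice correlated at a median of 0.149, against 0.013 for other numbers. Of 8 same-numbered pairs 5 correlated above 0.1. Of these 8 pairs 5 also shared a slide, so pairing by number and by slide cannot be told apart. Named genes are the 15 largest rises and 15 largest falls among called genes with a symbol, list members that passed, or the member with the lowest p, and the 5 genes with the lowest p for the difference between diets. Further genes were named after their values were seen, and a few genes that the rule picks are not reported here. The groups and lists were chosen with earlier results of these data known, and those of heat shock proteins, histones, immediate early genes and gamma delta T cells after their values were seen. Lists are described by counts and medians with no test. Alternatives changed the block, background correction, scaling, filter, probe choice, variance model, array weights and mice included.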

Additional observations from a re-analysis of the deposited data

Results flagged for a closer look

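Among 64 named genes in both Western diet groups, 3 of 128 groups held a mouse whose gap to the nearest of the other 7 passed Dixon's critical value, where chance alone gives about 1 in 20. Slc5a6 was highest in E171 replicate 2, at 2.79, with the next at 2.36. Gm20627 was highest in E171 replicate 6, at -2.28, inside the range of the controls, with the next at -3.37. Marco was highest in E171 replicate 2, at 4.53 and above every control, with the next E171 mouse at 1.48.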

How the results depend on the processing

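The 92 calls became 169 with a replicate block (89 shared), 170 with array weights (79 shared), 53 with no filter on low signal (47 shared), 40 with the Western diet arrays fitted alone (31 shared, 29 higher and 11 lower) and 4 without the 3 controls of low Cidea signal, an analysis added after the data were seen; fewer mice or more genes were tested in the last 3, and other causes were not tested. Leaving out 1 mouse gave 22 to 166 calls. The count moved by over 1.5 times without control replicates 1 (166), 2 (155), 3 (29), 5 (51), 7 (22) and 8 (165) and without E171 replicates 1 (38), 2 (35), 4 (51), 5 (47) and 8 (50). Calls were 99 with slide as a block, 131 with normexp, 100 with quantile normalization and 134 in the deposited table, where 50 were higher and 84 lower, against 47 and 45. For the difference of effects between diets, 0 genes became 1 with a replicate block, 1 with no filter and 0 to 1 when 1 mouse was left out, the 1 without E171 replicate 2. Of 32 called genes followed through the alternatives, 1 (Cd163l1) kept its call in all 30. Of 36 named genes not called, 9 passed in at least 1. Only Sptlc1 changed direction, to 0.02 with the mean of its probes. Scaling turned the sign of the exocrine pancreas and inflammatory medians (both 0.02 with normexp), of the SREBP2 median (0.01 with quantile normalization), of the bile acid median (-0.01 in the deposited table) and moved the median of all genes by under 0.1. Same-numbered control and E171 mice correlated at -0.29 to 0.57, median 0.15. Genes such as H3c8, H2bc23, Cd163l1, Gm9881 and Gm5103 passed the filter through 1 Western diet group only. They lie near the background in the other Western diet group, where the signal sets the size of their change. With normexp H3c8 stood at -0.09 and H2bc23 at -0.33.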
